A study of Mus musculus with 6 samples.

Results

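The segments described here are the variable (V) and joining (J) segments of the T cell receptor beta chain, called TRBV and TRBJ, as carried by conventional T cells of mouse liver. They were taken from every assembled beta chain contig of 3 T cell receptor libraries whose V name begins with TRBV and whose J name begins with TRBJ. Cell barcodes that also held an alpha chain joining TRAV11 or TRAV11D to TRAJ18, which marks invariant natural killer T (iNKT) cells, were left out. The rule found 22 TRBV and 12 TRBJ names, of 166 V and J names of both chains in those libraries. After 1 double name was joined to its sequence twin (described below), there were 21 TRBV, which with the TRBJ make 33 segments. They were carried by 2251, 3271 and 2276 conventional T cells in the 3 libraries, of 6479, 10228 and 7153 cell barcodes in the matching RNA libraries.

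The groups were wild-type mice fed a high-fat diet with 60% fat (WT HFD), wild-type mice fed that diet with 0.25% hyodeoxycholic acid, a bile acid (WT HFD+HDCA), and Ja18-/- mice fed the diet with the bile acid (iNKT KO HFD+HDCA, here the knockout). Wherever 3 values stand in a row, they belong to these libraries in this order. All mice were fed for 12 weeks, so every group carried the high-fat diet, and the knockout was compared with wild-type mice only under the bile acid. Mononuclear cells of the liver were sorted for CD45, with 10000 cells stated per sample, although another label names CD4+ cells. Each group had 1 RNA and 1 receptor library from the same cells, the number, age and strain of the mice are not given in the sources used here, and pooling of animals could not be told. No test between groups was therefore possible: intervals below are exact 95% intervals that cover counting error only. The RNA libraries held 44332213, 70776925 and 46600746 unique molecular identifiers (UMIs).

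A beta chain gene is assembled in each developing T cell by joining 1 D segment to 1 J segment and then 1 V segment to that unit. The first and second complementarity-determining regions (CDR1 and CDR2) are encoded by the V segment and mostly touch the major histocompatibility complex (MHC), whereas CDR3 spans the V, D and J joints and mostly touches the peptide. CD4 cells recognise MHC class II and CD8 cells MHC class I, and segment use in mature cells reflects both recombination and selection in the thymus. The TRBJ segments lie in 2 clusters, each behind its own D segment and in front of its own constant gene, so a D segment of the downstream cluster cannot in the usual deletional order reach a J of the upstream one.

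The T cell label was checked against marker genes. Among the 6 T cell markers, Cd3e, a CD3 subunit, had a UMI in 98.9%, 98.8% and 98.4% of the conventional T cells. Of the iNKT markers, Traj18, the segment deleted in the knockout, had UMIs in 0.977% and 1.13% of wild-type cells and in 0 of 2276 knockout cells, where the limit of 3 cells that a count of 0 allows is 0.132%. Zbtb16, a transcription factor of innate-like T cells, was seen in 3.15%, 3.82% and 5.14%. The 4 B cell markers were seen in 5.64% to 14.4% of these cells and the 3 natural killer cell markers in 3.73% to 24.5%. The 3 hepatocyte markers were seen in 0.0439% to 0.367%. The 5 markers of monocytes and macrophages were seen in 0.0306% to 12.2%, with Lyz2 at 4.93%, 6.91% and 12.2% and Cd68 at 5.51%, 5.38% and 5.23%. Their part in the results below was not tested. Libraries shared 67 to 93 RNA barcodes pairwise and 8 to 10 barcodes with a beta chain, and in none of the latter did the CDR3 match.

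The V segments that the results turn on differ in the stretch from CDR1 to CDR2, which is the part of the receptor fixed by the choice of V alone. The commonest assembled nucleotide sequence of that stretch is given for the 5 segments that were higher in CD8 cells, with CDR1 and CDR2 in capitals and framework 2 between them in lower case, 5′ to 3′.
TRBV12-1: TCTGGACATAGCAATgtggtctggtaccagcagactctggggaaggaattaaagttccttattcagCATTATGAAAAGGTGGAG
TRBV12-2: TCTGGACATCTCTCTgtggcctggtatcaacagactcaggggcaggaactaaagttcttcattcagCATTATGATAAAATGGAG
TRBV29: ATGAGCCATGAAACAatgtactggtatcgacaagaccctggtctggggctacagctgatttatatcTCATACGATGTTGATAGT
TRBV14: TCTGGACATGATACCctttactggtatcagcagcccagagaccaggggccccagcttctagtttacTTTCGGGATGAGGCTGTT
TRBV17: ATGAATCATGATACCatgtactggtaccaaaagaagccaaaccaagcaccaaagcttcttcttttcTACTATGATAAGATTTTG

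The same stretch follows for the 6 segments that were higher in CD4 cells, and for TRBV13-1, which lies between TRBV12-1 and TRBV12-2 in the locus (order of genes from the RefSeq table of GRCm38.p6).
TRBV31: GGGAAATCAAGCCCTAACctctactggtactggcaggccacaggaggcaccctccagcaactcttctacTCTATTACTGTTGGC
TRBV20: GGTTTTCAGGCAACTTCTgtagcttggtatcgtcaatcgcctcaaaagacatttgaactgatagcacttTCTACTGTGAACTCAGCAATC
TRBV2: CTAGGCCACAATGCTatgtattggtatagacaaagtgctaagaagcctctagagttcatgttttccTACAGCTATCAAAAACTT
TRBV5: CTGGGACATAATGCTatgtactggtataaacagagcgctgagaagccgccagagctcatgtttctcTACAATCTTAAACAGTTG
TRBV26: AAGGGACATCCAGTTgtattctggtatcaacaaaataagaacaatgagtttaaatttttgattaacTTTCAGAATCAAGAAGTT
TRBV13-2: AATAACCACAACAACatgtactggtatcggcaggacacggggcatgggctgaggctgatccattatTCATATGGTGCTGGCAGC
TRBV13-1: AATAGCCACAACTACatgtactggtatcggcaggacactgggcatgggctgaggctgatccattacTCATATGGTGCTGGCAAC

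Each printed stretch was carried by 99.7% to 100% of the chains of its segment. TRBV12-1 and TRBV12-2 were identical at 69 of 84 bases (82.1%), more than either was to any other segment with a stretch of that length, the next being TRBV23 at 57.1% and 58.3%. The TRBV13 members were closer still, with TRBV13-1 and TRBV13-2 identical at 79 of 84 bases. TRBV31 has its CDR length divided differently, with 18 bases of CDR1 and 15 of CDR2, and TRBV20 is longer in both, with 18 and 21 bases.

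Use of the segments was first described within each library. A distinct CDR3 means a distinct combination of V, J and nucleotide CDR3, so that an expanded clone counts once. There were 1993, 2883 and 1932 of them, from 2359, 3448 and 2403 chains with a median of 11, 11 and 12 UMIs. TRBV13-2 was the most used V segment, with 13.4%, 12.0% and 13.1% of distinct CDR3. TRBV3 followed with 7.58%, 8.22% and 6.11%, TRBV13-3 with 7.18%, 6.45% and 8.39%, and TRBV19 with 7.28%, 6.97% and 7.14%. TRBV13-1 held 6.97%, 6.24% and 6.73%, and TRBV16 6.02%, 5.93% and 5.49%. After TRBV13-2, the order of the next segments was mostly unresolved. The exact intervals of TRBV3, TRBV13-3, TRBV19 and TRBV13-1 overlapped pairwise in WT HFD and in the knockout, and in WT HFD+HDCA all but TRBV3 (7.24% to 9.28%) and TRBV13-1 (5.39% to 7.19%) did. These 6 segments together gave 46.9% of all distinct CDR3, and only TRBV23 (0.602%, 0.486% and 0.414%) and TRBV30 (0.401%, 0.243% and 0.362%) stayed below 1%.

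**Figure D1:**
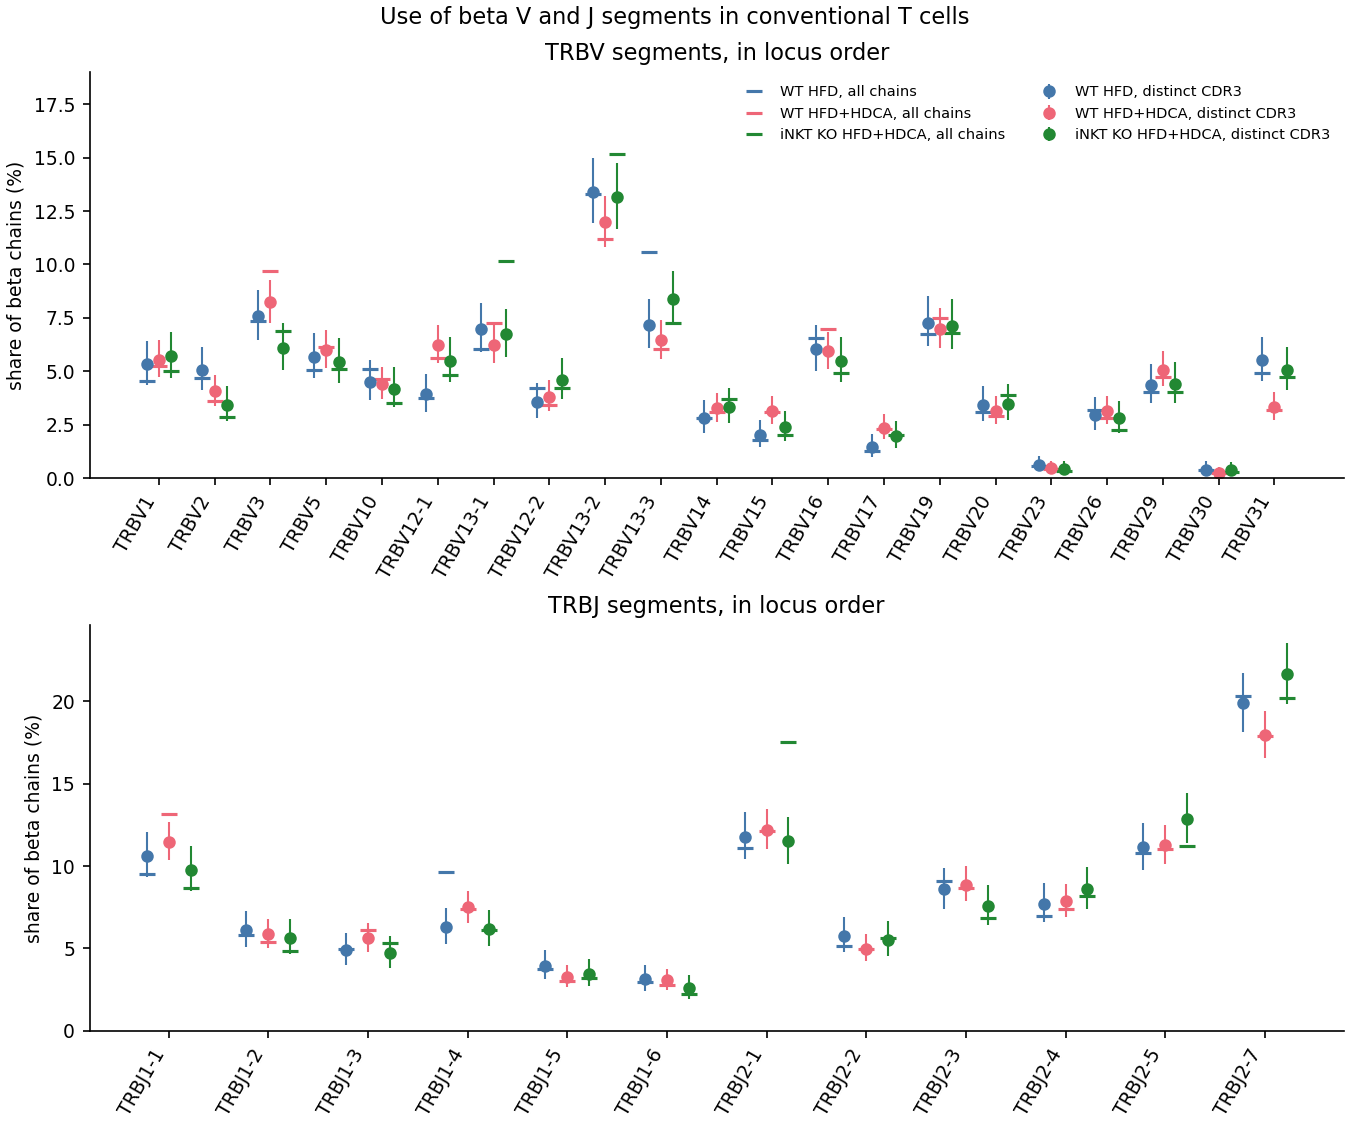
Share of beta chains (%, vertical axes) per TRBV segment (top, ordered along the locus, TRBV10 placed by its name) and TRBJ segment (bottom) in the 3 libraries; circles are shares of distinct CDR3 with exact 95% intervals, dashes are shares of all chains. TRBV13-2 and TRBJ2-7 stand highest in all 3 libraries, and dashes leave the circles at TRBV13-3 in WT HFD and at TRBV13-1 and TRBJ2-1 in iNKT KO HFD+HDCA.

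Among the J segments, TRBJ2-7 was the most used, with 19.9%, 17.9% and 21.6% of distinct CDR3. TRBJ2-1 had 11.8%, 12.2% and 11.5%, and TRBJ2-5 11.1%, 11.3% and 12.8%, so these neighbours were not separated by their intervals. The least used were TRBJ1-6, with 3.16%, 3.09% and 2.59%, and TRBJ1-5, with 3.96%, 3.30% and 3.47%. The 3 leading J segments are shown with the germline-like 3′ end of CDR3 in capitals (the stretch carried by at least 70% of distinct CDR3) and framework 4 in lower case.
TRBJ2-7: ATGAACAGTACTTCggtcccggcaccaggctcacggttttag
TRBJ2-1: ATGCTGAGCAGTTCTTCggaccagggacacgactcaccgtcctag
TRBJ2-5: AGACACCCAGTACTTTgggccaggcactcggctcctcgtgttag

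The downstream J cluster, TRBJ2, held 64.9% (62.7 to 67.0), 63.2% (61.4 to 64.9) and 67.7% (65.5 to 69.7) of distinct CDR3 in the 3 libraries. The contigs followed the order of the locus. Where a D segment was named, in 23.4%, 21.4% and 24.7% of distinct CDR3, TRBD2 was joined to a TRBJ1 segment in 1 of 159, 1 of 198 and 0 of 171 cases, and 0 of 171 has an upper bound of 2.13%. TRBD1, which lies in front of both clusters, was joined to TRBJ1 in 45.3%, 49.9% and 47.1%. The constant gene on the contig carried the number of its J cluster in all 2346, 3431 and 2394 chains that named one. In the RNA libraries this match was loose: Trbc1 took 32.8%, 35.5% and 35.7% of Trbc UMIs in cells with a TRBJ1 chain, and Trbc2 81.8%, 82.6% and 81.1% in cells with a TRBJ2 chain. Trbc1 and Trbc2 are near-identical copies, and counting can split their reads, but its part in the loose match was not tested.

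The V name of a contig was set against the Trbv RNA of the same cell, a readout from the other library. A UMI of any Trbv gene was present in 98.5%, 97.7% and 98.7% of conventional T cells and in 2.39%, 2.14% and 2.49% of B cells, at medians of 7254, 7238 and 7149 UMIs per T cell and 4540, 4461 and 4272.5 per B cell. In 7059 cells with a single beta chain, TRBV10 left aside, the gene of the contig's own name had the most Trbv UMIs in 6819 of the 6955 cells with any, or 98.0%. Counted over every chain not named TRBV10, 98.3%, 97.5% and 97.9% had a UMI of their own gene.

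Exceptions were few and named. TRBV5 had a UMI of Trbv5 in 69.7%, 59.1% and 59.8% of its cells, at 1.27, 0.984 and 1.09 UMIs per cell, against 8.38, 8.05 and 8.86 for TRBV12-1. Chains named TRBV10 had no Trbv10 UMI in any of 327 cells, which allows a share of up to 1.12% of cells (exact upper bound), but 85.0% of them had a Trbv4 UMI, against 1.05% of other conventional T cells. The RefSeq table lists Trbv10 as a pseudogene and gives Tcrb-V10 as an older name of Trbv4. TRBV29, also listed there as a pseudogene, had Trbv29 UMIs in 98.9%, 100% and 100% of its cells and 4.67% of all distinct CDR3. A double name, TRBV12-2+TRBV13-2, stood on 926 chains. Of these, 925 had the V sequence of the 139 chains named TRBV13-2 alone, and they were counted as TRBV13-2.

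**Figure D2:**
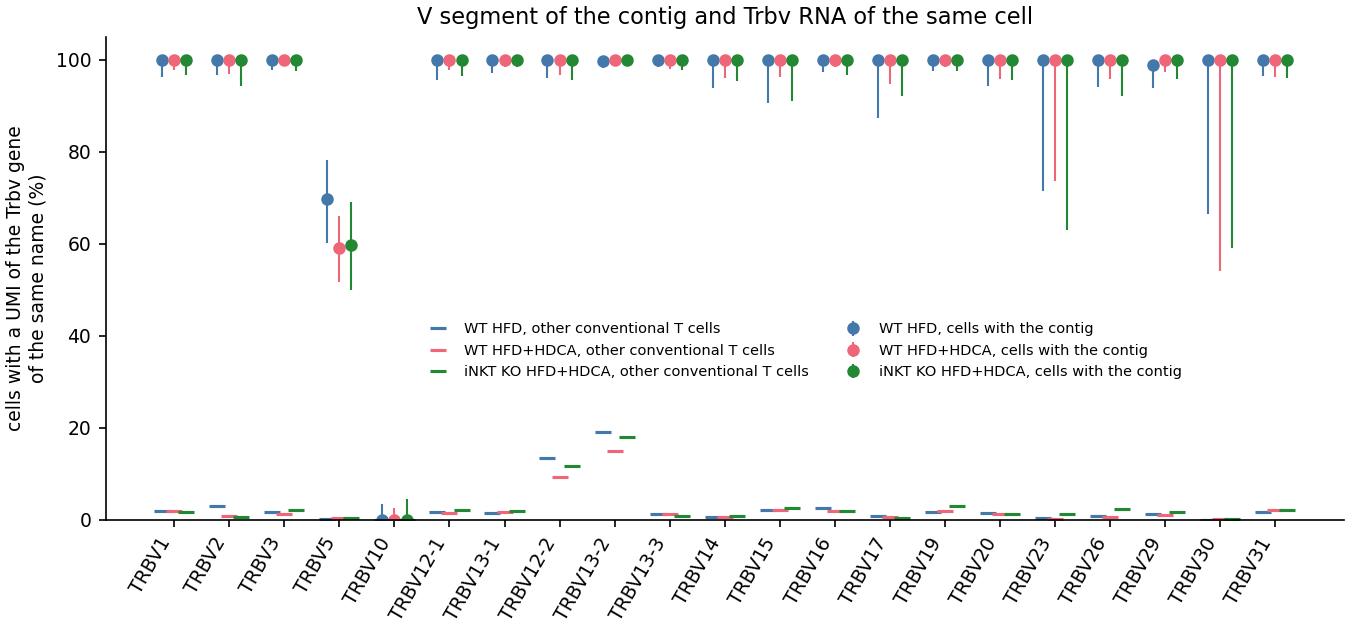
Percent of cells with at least 1 UMI of the Trbv gene of the same name (vertical axis) for each TRBV segment and library; circles are cells with that contig and a single beta chain, with exact 95% intervals, and dashes are the other conventional T cells. Circles sit near 100% except for TRBV5 (59.1% to 69.7%) and TRBV10 (0). Dashes are highest for Trbv13-2 (14.9% to 19%), followed by Trbv12-2 (9.34% to 13.4%).

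V use was then compared between CD4 and CD8 cells of the same library. A cell was CD4 when it had a Cd4 UMI and no Cd8a or Cd8b1 UMI, and CD8 in the opposite case. CD4 cells made up 31.1%, 21.9% and 22.3% of conventional T cells, and CD8 cells 47.8%, 53.5% and 52.2%. Cells with both coreceptors were 4.0%, 3.55% and 3.91%, and cells with neither 17.2%, 21.0% and 21.6%. Median RNA depth was 6534, 6000 and 6016 UMIs in CD4 cells and 7978, 7938 and 8257 in CD8 cells, and its part in the results was not tested. In B cells, which lack both, Cd4 was seen in 0.532%, 0.696% and 0.470% and Cd8a or Cd8b1 in 1.24%, 1.29% and 1.78%. Only 2, 4 and 2 distinct CDR3 occurred in both classes of 1 library. Foxp3, of regulatory T cells, was seen in 5.72%, 10.8% and 8.09% of CD4 cells.

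Of the 19 TRBV segments with at least 1% of distinct CDR3, 5 had a ratio of CD8 to CD4 share of at least 5:4 in all 3 libraries, which is 26.3% of those compared, and 6 had the reverse, 31.6%. With 3 libraries, an exact two-sided sign-flip permutation test cannot give a p below 0.25, so directions and sizes are given without a test. Both lists held the same members when chains were counted per cell, when only contigs with at least 3 UMIs were used and when doublets and cells of low quality were left out.

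TRBV12-2 and TRBV12-1 had the lowest mean log2 ratios of CD4 over CD8, and the gap between the 2 was smaller than their spread. TRBV12-2 made up 0.599%, 0.455% and 1.14% of distinct CDR3 in CD4 cells, and 6.0%, 5.26% and 6.86% in CD8 cells. The 3 CD8 values lay above all 3 CD4 values, with ratios of CD8 to CD4 of 10.0 (3.69 to 38.2), 11.5 (3.8 to 57.2) and 6.04 (2.47 to 19.1). The mean log2 ratio of CD4 over CD8 was -3.15 ± 0.49 (SD, n = 3 libraries).

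TRBV12-1, its closest relative in sequence, had 0.749%, 1.67% and 0.909% in CD4 cells and 6.47%, 8.99% and 7.88% in CD8 cells. CD8 shares were 8.64 (3.49 to 27.6), 5.39 (2.91 to 11.1) and 8.67 (3.26 to 32.5) times the CD4 shares, again without overlap, and the mean log2 ratio was -2.89 ± 0.39 (SD, n = 3 libraries). Together these 2 segments gave 1.35%, 2.12% and 2.05% of distinct CDR3 in CD4 cells and 12.5%, 14.2% and 14.7% in CD8 cells. They flank TRBV13-1, which had no single direction over the libraries: its CD4 shares were 6.89%, 6.53% and 5.68% and its CD8 shares 6.81%, 5.81% and 7.04%.

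TRBV29 had 1.35%, 2.28% and 1.36% in CD4 and 7.85%, 5.88% and 6.58% in CD8 cells, a mean log2 ratio of -2.06 ± 0.62 (SD, n = 3 libraries). TRBV14 had 1.80%, 1.37% and 1.59% in CD4 and 4.04%, 4.43% and 3.99% in CD8 cells (-1.40 ± 0.27). TRBV17 had 1.05%, 0.759% and 0.682% in CD4 and 1.62%, 2.84% and 2.69% in CD8 cells (-1.50 ± 0.76). For all 3 the CD4 and CD8 values did not overlap across libraries. TRBV17 left the list when 2 UMIs of a coreceptor were asked for. It rests on 7, 5 and 3 distinct CDR3 in CD4 cells, and in WT HFD its ratio of CD8 to CD4, 1.54, had an interval of 0.583 to 4.52. TRBV16 was also lower in CD4 cells in every library, by a log2 of only 0.07 in WT HFD, and passed 5:4 without that library.

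Of the segments higher in CD4 cells, TRBV31 and TRBV2 had the highest mean log2 ratios of CD4 over CD8, 1.46 ± 0.32 and 1.43 ± 0.44 (SD, n = 3 libraries), which differed by less than their spread. TRBV31 held 8.53%, 5.77% and 9.09% of distinct CDR3 in CD4 cells and 3.23%, 2.56% and 2.60% in CD8 cells. The CD4 values were above all CD8 values, with ratios of 2.64 (1.65 to 4.31), 2.25 (1.39 to 3.64) and 3.50 (2.11 to 5.90). TRBV31 is the last V segment of the locus, downstream of both J clusters.

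TRBV20 held 4.79%, 5.31% and 7.5% in CD4 and 2.19%, 2.42% and 2.41% in CD8 cells, with ratios of 2.18, 2.19 and 3.11. TRBV2 held 6.89%, 7.28% and 7.05% in CD4 and 3.23%, 3.04% and 1.85% in CD8 cells, with ratios of 2.13, 2.39 and 3.8. All intervals of these ratios excluded 1, and neither segment overlapped between the classes.

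TRBV5 held 8.23%, 8.50% and 8.18% in CD4 and 3.35%, 4.70% and 5.0% in CD8 cells, with ratios of 2.46, 1.81 and 1.63. TRBV26 held 3.89%, 4.25% and 3.86% in CD4 and 1.96%, 2.63% and 1.85% in CD8 cells, with ratios of 1.98, 1.62 and 2.08, the second with an interval of 0.956 to 2.7. The most used segment, TRBV13-2, showed the smallest difference, at 14.1%, 13.8% and 14.1% against 11.0%, 9.82% and 10.5%. Its ratios of 1.28, 1.41 and 1.35 had lower bounds of 0.954, 1.07 and 0.971. It left the list at a 1.5-fold threshold, with CD8 taken from Cd8b1 alone and with CDR3 seen in 1 cell. It also left when the double name TRBV12-2+TRBV13-2 was kept apart. Its CD4 and CD8 values nevertheless did not overlap.

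**Figure D3:**
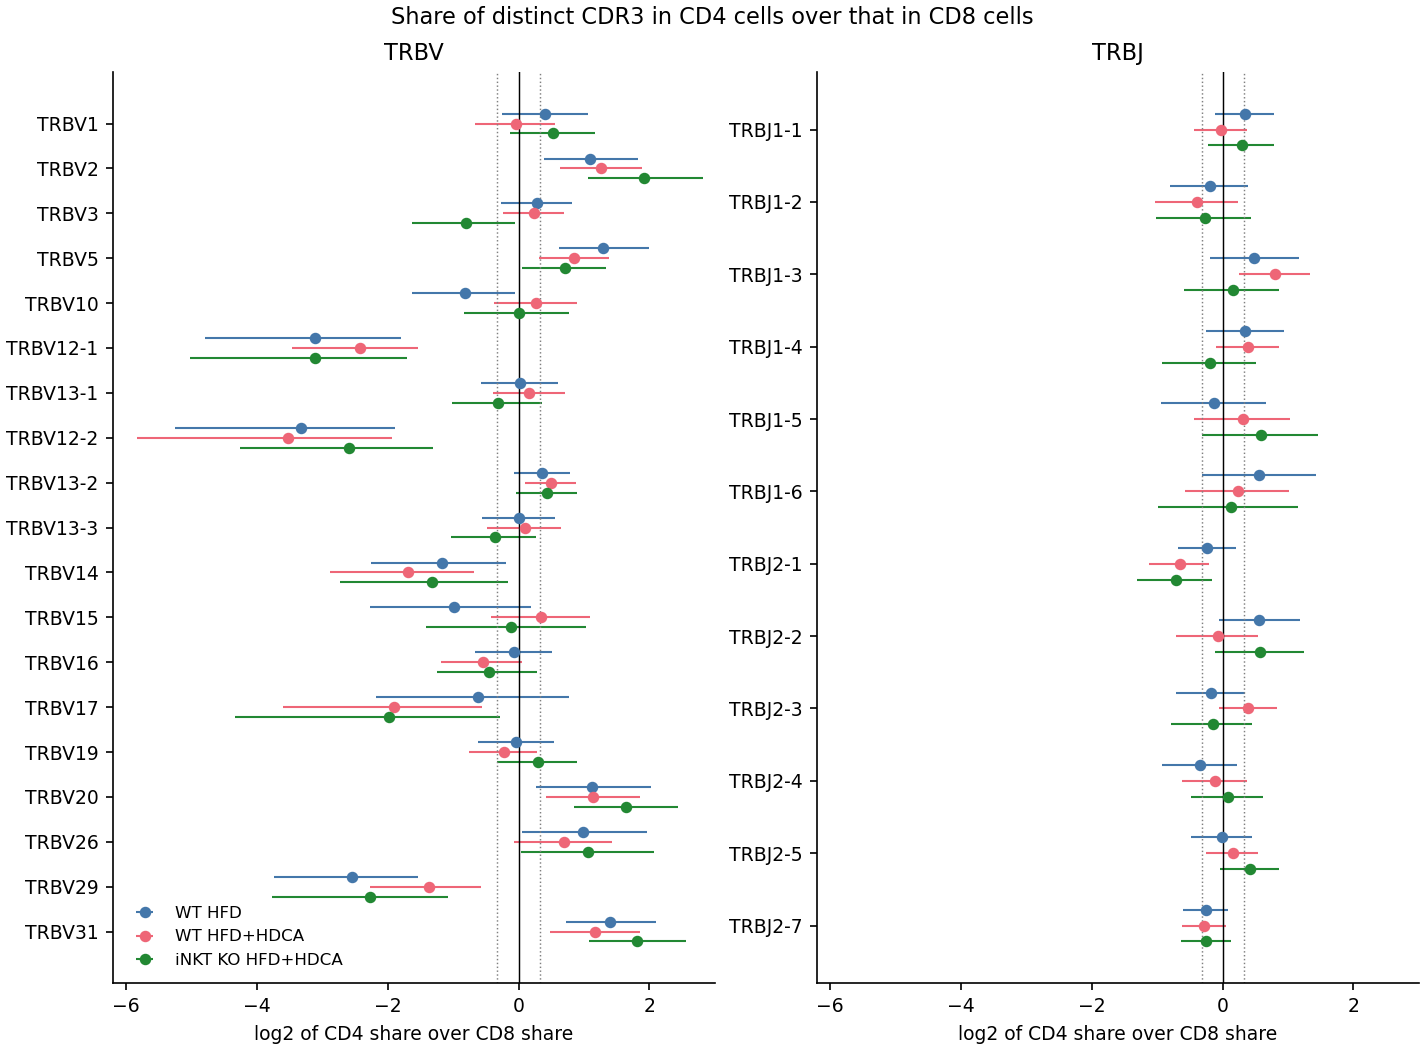
Log2 of the share of distinct CDR3 in CD4 cells over that in CD8 cells (horizontal axes) for TRBV (left) and TRBJ (right) segments, 1 point per library with the exact 95% interval of the ratio; dotted lines mark a ratio of 5:4. TRBV12-1, TRBV12-2 and TRBV29 lie far to the left and TRBV31, TRBV2 and TRBV20 to the right in all 3 libraries, and no TRBJ segment lies past a dotted line on 1 side in all 3.

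The members of each list were summed to see the cells with unclear coreceptors. The 6 segments higher in CD4 cells made up 46.4%, 44.9% and 49.8% of distinct CDR3 in CD4 cells and 24.9%, 25.2% and 24.2% in CD8 cells, values set by the choice of members. In cells with neither coreceptor, which the choice did not use, they made up 40.9%, 31.7% and 41.1%, and in cells with both 46.6%, 34.9% and 38.0%. The 5 segments higher in CD8 cells made up 12.9%, 20.7% and 12.8% of distinct CDR3 in cells with neither coreceptor, between their shares in CD4 and in CD8 cells of each library. The V segment was also read from RNA alone, as the Trbv gene with most UMIs, and 6 and 5 segments of the lists were again found, with TRBV1 added on the CD4 side.

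J segments differed little between CD4 and CD8 cells. None of 12 passed 5:4 in all 3 libraries in either direction, 0% each way. TRBJ2-7 was lower in CD4 cells by nearly the same amount in each, with 17.5%, 15.8% and 18.4% against 20.9%, 19.2% and 21.9% in CD8 cells, a mean log2 ratio of -0.26 ± 0.02 (SD, n = 3 libraries). TRBJ2-1 had 10.8%, 8.19% and 7.73% in CD4 and 12.7%, 12.9% and 12.7% in CD8 cells, with ratios of CD8 to CD4 of 1.18, 1.58 and 1.64, and it passed 5:4 without WT HFD. TRBJ1-2 also pointed to CD8 (-0.29 ± 0.09).

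On the CD4 side, TRBJ1-3 had 5.99%, 8.19% and 5.68% in CD4 and 4.27%, 4.70% and 5.10% in CD8 cells, with ratios of 1.40, 1.74 and 1.11. TRBJ1-6 had ratios of 1.47, 1.18 and 1.09, each with an interval that included 1. The TRBJ2 cluster was 60.6%, 59.5% and 65.0% of distinct CDR3 in CD4 and 66.5%, 64.7% and 67.6% in CD8 cells. The CD8 value was higher within each library, but the 2 classes overlapped across libraries. Mean CDR3 length was 41.9, 41.6 and 41.7 bases in CD4 and 41.4, 41.8 and 41.8 bases in CD8 cells, with an SD of 3.96 to 4.57 bases.

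Between the 2 wild-type libraries, 4 of 19 TRBV segments (21.1%) differed by at least 1.5-fold, and no TRBJ segment of 12 did (0%). TRBV17 was 1.46% in WT HFD and 2.36% in WT HFD+HDCA, a ratio of 1.62 (1.04 to 2.60). TRBV12-1 was 3.91% and 6.24%, with a ratio of 1.60 (1.22 to 2.11), and TRBV15 was 2.01% and 3.16%, with a ratio of 1.57 (1.07 to 2.34). TRBV31 was 5.52% and 3.33%, with a ratio of 0.603 (0.454 to 0.801), followed by TRBV2 (0.801, 0.608 to 1.06) and TRBJ1-5 (0.831, 0.610 to 1.13).

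CD4 cells were 31.1% of conventional T cells in WT HFD and 21.9% in WT HFD+HDCA, and TRBV31 was a segment of CD4 cells and TRBV12-1 and TRBV17 of CD8 cells. Within CD4 cells TRBV31 had a ratio of 0.676 (0.436 to 1.04), and within CD8 cells 0.791 (0.471 to 1.34). TRBV12-1 had a ratio of 2.23 (0.714 to 8.19) within CD4 cells and 1.39 (1.01 to 1.94) within CD8 cells. TRBV17 had 0.724 (0.181 to 2.65) within CD4 cells and 1.75 (0.937 to 3.48) within CD8 cells. When CD4 and CD8 shares were averaged with equal weight, a setting added after the data were seen, only 1 of the 19 segments, TRBV15, was 1.5-fold apart, with a ratio of 1.69. TRBV12-1 was then at 1.48, TRBV17 at 1.35 and TRBV31 at 0.708, all in the direction they had in all cells, whereas TRBV2 was at 1.02. TRBV15 was 1.35% and 3.79% in CD4 cells, a ratio of 2.82 (1.27 to 6.86), and 2.66% and 2.97% in CD8 cells, a ratio of 1.12 (0.660 to 1.95). It rests on 9 and 25 distinct CDR3 in CD4 cells.

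Between the knockout and the wild type under the bile acid, 1 of 19 TRBV segments (5.26%) differed by at least 1.5-fold, and no TRBJ segment of 12 did (0%). TRBV31 was 5.07% in iNKT KO HFD+HDCA and 3.33% in WT HFD+HDCA, a ratio of 1.52 (1.14 to 2.04), and its value in WT HFD was 5.52%. With contigs of at least 3 UMIs this count was 0. TRBV13-3 was 8.39% against 6.45%, a ratio of 1.30 (1.05 to 1.61), and TRBV12-2 had 1.21 (0.903 to 1.61).

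The lowest ratios were those of TRBV3, at 6.11% against 8.22%, a ratio of 0.743 (0.591 to 0.930), TRBV15 (0.754, 0.517 to 1.09) and TRBJ1-4 (0.822, 0.652 to 1.03). TRBV3 was lower in CD4 cells, 4.09% against 9.26% with a ratio of 0.442 (0.246 to 0.758), and closer in CD8 cells, 7.14% against 7.88% with a ratio of 0.905 (0.669 to 1.22). With CD4 and CD8 cells weighted equally, TRBV3 and TRBV15 were the 2 segments past 1.5-fold. Among J segments, TRBJ2-7 was 21.6% against 17.9%, a ratio of 1.21 (1.06 to 1.38), and it was the only 1 of 12 (8.33%) whose interval excluded 1. Of the 19 TRBV segments the interval excluded 1 for 3 (15.8%) in this comparison and for 4 (21.1%) between the wild-type libraries.

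**Figure D4:**
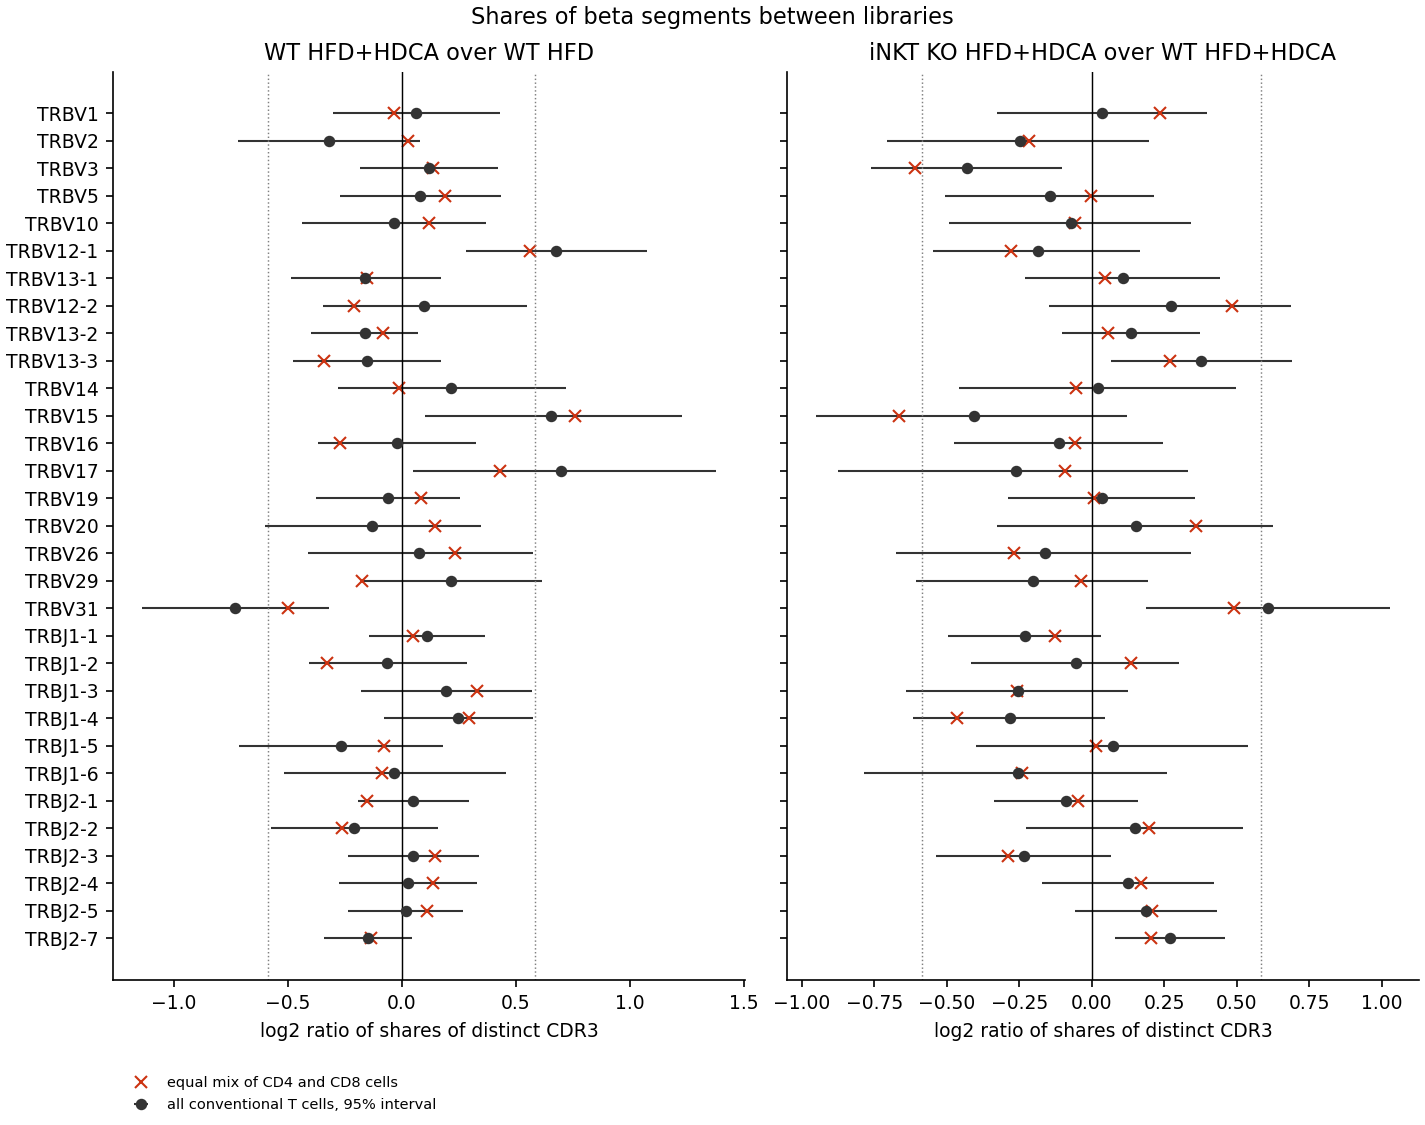
Log2 ratio of shares of distinct CDR3 (horizontal axes) for each segment, for WT HFD+HDCA over WT HFD (left) and iNKT KO HFD+HDCA over WT HFD+HDCA (right); circles with exact 95% intervals use all conventional T cells, crosses weight CD4 and CD8 cells equally, and dotted lines mark 1.5-fold. TRBV31 has ratios of 0.603 on the left and 1.52 on the right, and its crosses lie inside the dotted lines.

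The distance between libraries was summed over segments. The share of distinct CDR3 that would have to change segment to turn 1 library into another was 5.68 to 7.15 percentage points for TRBV and 3.71 to 6.70 for TRBJ over the 3 pairs of libraries. Counting error alone makes such a sum positive, and the size of that part was not worked out. The same measure on the J segments of the alpha chain was 9.83 points between the wild-type libraries. It was 68.8 points between the knockout and WT HFD and 66.6 points between the knockout and WT HFD+HDCA. No nucleotide beta CDR3 occurred in all 3 libraries, and 4 of 6804 occurred in more than 1.

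V and J pairs were set against the product of their shares. Of 252 possible pairs 249 were seen, and none of 56 pairs with at least 10 expected distinct CDR3 in each library was 1.5-fold above or below expectation in all 3 (0% each way). Pairs with 1 direction were ordered by the library nearest to expectation. By that order TRBV19 with TRBJ2-3 came foremost among those below, at 0.563, 0.672 and 0.671 of expectation (7, 12 and 7 seen), then TRBV1 with TRBJ2-7 at 0.665, 0.732 and 0.462. TRBV3 with TRBJ2-5 came foremost among those above, at 1.31, 1.5 and 1.32 (22, 40 and 20 seen), then TRBV1 with TRBJ1-1 at 1.33, 1.20 and 1.30. Of the 56 pairs, 15 were below and 8 above expectation in every library.

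Per-cell shares departed from those of distinct CDR3 where single clones were large. In WT HFD the largest beta CDR3 joined TRBV13-3 to TRBJ1-4 in 88 cells, 84 of them CD8, which was 35.3% of all TRBV13-3 cells, and TRBV13-3 was 10.6% of chains against 7.18% of distinct CDR3. In WT HFD+HDCA it joined TRBV13-1 to TRBJ1-1 in 36 cells, all CD8. In iNKT KO HFD+HDCA it joined TRBV13-1 to TRBJ2-1 in 66 cells, of which 63 had neither coreceptor. The knockout also had a TRBV3 to TRBJ2-1 clone of 34 cells, 21 CD8 and 13 with both coreceptors. A TRBV13-2 to TRBJ1-3 clone there had 30 cells, 22 of them CD4. After these came a TRBV13-2 to TRBJ2-1 clone of 25 cells, all with neither coreceptor. The nucleotide CDR3 of the largest chain of each library and of this last one follow. Lower case marks the ends shared with at least 70% of distinct CDR3 of the same V or J, and capitals the bases between.
TRBV13-3 to TRBJ1-4, 88 cells of WT HFD: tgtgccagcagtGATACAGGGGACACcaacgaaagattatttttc
TRBV13-1 to TRBJ1-1, 36 cells of WT HFD+HDCA: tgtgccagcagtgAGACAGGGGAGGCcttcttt
TRBV13-1 to TRBJ2-1, 66 cells of iNKT KO HFD+HDCA: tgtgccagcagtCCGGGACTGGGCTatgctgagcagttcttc
TRBV13-2 to TRBJ2-1, 25 cells of iNKT KO HFD+HDCA: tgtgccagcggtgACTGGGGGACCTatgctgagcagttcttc

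Chains in CDR3 of 5 or more cells were 11.7%, 10.9% and 16.3% of all chains. For TRBV13-1 they were 0%, 22.4% and 48.8%, and for TRBV13-3 they were 42.0%, 5.29% and 4.57%. TRBJ2-1 was 17.5% of chains but 11.5% of distinct CDR3 in the knockout.

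The knockout clones with neither coreceptor shared an alpha chain. In the TRBV13-1 clone, 41 of the 46 cells with an alpha contig carried the same chain, TRAV13N-3 joined to TRAJ50. In the TRBV13-2 clone, all 16 cells with an alpha contig carried that chain too, with the same nucleotide CDR3. These 2 alpha segments were therefore followed in all conventional T cells, a choice made after the values were seen. An alpha chain that joins TRAV13 to TRAJ50 occurred in 9, 7 and 99 cells of the 3 libraries, which is 0.400%, 0.214% and 4.35% of conventional T cells. Expanded clones weigh on these cell counts: the cells held 3, 7 and 11 distinct alpha CDR3 and 3, 7 and 15 distinct beta CDR3. Conventional T cells without an assembled alpha contig could not be counted here. The share of TRAJ50 among all alpha chains was not compared. Such a chain is known from CD1d-restricted T cells other than iNKT cells, described in Jα18-deficient mice.

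The beta chains of these cells in the knockout came almost all from 2 segments. Of the 99 knockout cells, 58 carried TRBV13-1 and 40 TRBV13-2, in 5 and 9 distinct CDR3, and 98 of 99 carried a TRBV13 segment. The TRBV13-1 and TRBV13-2 clones that prompted the choice gave 41 and 16 of these cells. The choice therefore partly set these counts, and none was made without those clones. In WT HFD+HDCA 1 of 7 did and in WT HFD 0 of 9, where 7 cells were 1 clone of TRBV12-1. The 99 knockout cells held 15 distinct beta and 11 distinct alpha CDR3, so they were not a single clone. All 99 used TRAV13N-3, and every alpha CDR3 was 39 bases long. The 5 alpha CDR3 seen in most cells share their last 26 bases, given in lower case.
57 cells: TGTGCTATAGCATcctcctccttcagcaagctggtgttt
15 cells: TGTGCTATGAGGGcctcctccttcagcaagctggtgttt
7 cells: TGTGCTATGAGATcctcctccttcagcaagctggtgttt
6 cells: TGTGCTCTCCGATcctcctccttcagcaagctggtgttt
6 cells: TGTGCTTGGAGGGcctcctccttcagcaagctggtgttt

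Of those 99 cells, 75 had neither coreceptor, 23 were CD4 and 1 was CD8. This split too was partly set by the choice, since the clones behind it had neither coreceptor in most cells. Zbtb16, a transcription factor of innate-like T cells, had a UMI in 28 of them, against 4.09% of the other conventional T cells of that library. In the wild-type libraries 0 of 9 and 0 of 7 had Zbtb16. Without these 99 cells TRBV13-1 was 8.07% of knockout chains rather than 10.2%, and TRBV13-2 14.1% rather than 15.2%. Cells of the 2 clones that had no alpha contig stayed in these shares. An alpha contig was found in 46 of 66 cells of the TRBV13-1 clone and 16 of 25 of the TRBV13-2 clone.

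**Figure D5:**
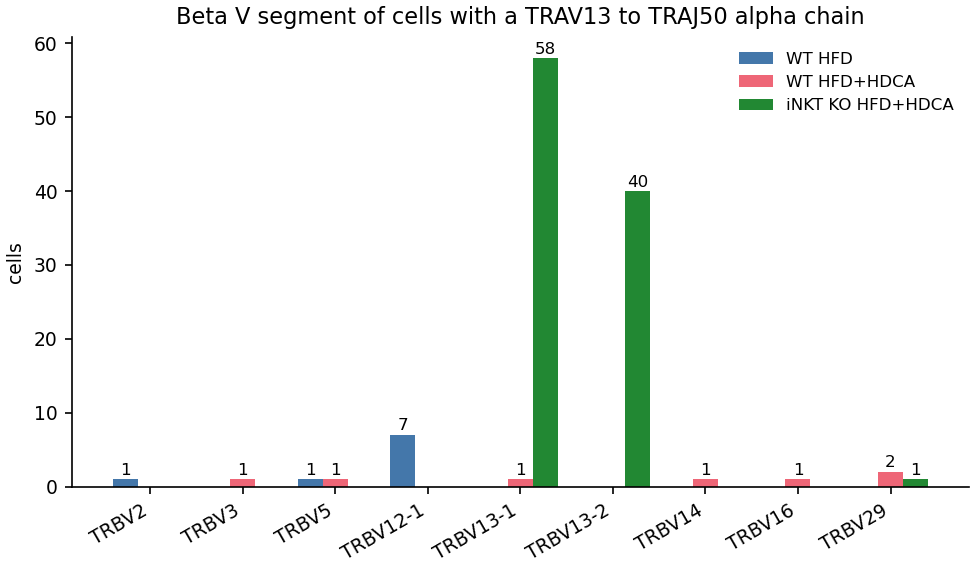
Number of conventional T cells (vertical axis) with an alpha chain joining TRAV13 to TRAJ50, by the TRBV segment of their beta chain and by library (colours), with the count above each bar. The knockout has 58 cells with TRBV13-1 and 40 with TRBV13-2, and the wild-type libraries have at most 7 cells with any segment.

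Genes of the receptor complex and its signalling were read from the RNA of the same cells. The list had 16 genes with at least 100 UMIs (CD3 subunits, constant genes, coreceptors and proximal kinases and adaptors). None was 1.5-fold apart in either comparison of libraries, and of all genes 3.13% and 4.07% were. Trac, the alpha constant gene, was at 186, 190 and 146 CPM (UMIs scaled to a common library total), and Cd3e at 848, 866 and 902. Cd4 was at 94.8, 69.9 and 69.4, and Cd8b1 at 616, 703 and 668. Trbc1 was at 145, 128 and 133 and Trbc2 at 416, 357 and 372. Between CD4 and CD8 cells, none of 13 list genes passed 1.5-fold in all 3 libraries (4.15% of all genes were higher in CD4 and 2.29% in CD8). Lists of 16 and 13 genes are too short to set a count of 0 apart from these shares. The recombination genes Rag1 and Rag2 had 0 UMIs in these cells, with exact upper bounds of 0.201, 0.139 and 0.198 CPM for each gene.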

How the data were processed

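The files of 3 liver libraries were used: gene by cell matrices of RNA counts and tables of assembled receptor contigs. Counts are UMIs per gene and cell barcode, deposited as made by Cell Ranger 8.0.1 per the file headers, and contigs carry UMI counts as the authors deposited them. The submitters' processing notes name both mm10 and GRCm39, so no coordinates are given, and gene names and order come from the RefSeq table of GRCm38.p6. Contigs were joined to RNA by barcode within a library. Shares have exact Clopper-Pearson intervals, ratios conditional exact intervals and RNA levels exact Poisson intervals, all at 95%. With 1 library per group no test was made. Segments with at least 1% of distinct CDR3 were compared, at 1.5-fold between libraries and 5:4 between CD4 and CD8 cells. Named segments were the highest, the lowest and those furthest apart by the same ratios. Cells were not filtered in the main analysis. Doublets called with Scrublet (scanpy 1.11.5) and cells under 200 genes or over 10% mitochondrial UMIs were left out in an alternative. The calculations were tested on simulated data (Python 3.11.15, pandas 2.3.3, scipy 1.17.1). The members and lists were chosen with earlier results of these data known. Results of 1 alternative on a subset of cells are counted but not reported here.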

Additional observations from a re-analysis of the deposited data

Results flagged for a closer look

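All 19 TRBV and 12 TRBJ segments compared were screened by the log2 ratio of the share in CD4 over CD8 cells. For 6 of them it pointed one way in the knockout and the other way in both wild-type libraries. The screen used signs alone, which counting error can also set. These differences between genotypes were not tested, and each group is 1 library. For TRBV3 it was -0.80 in the knockout and 0.28 and 0.23 in the wild-type libraries, WT HFD given before WT HFD+HDCA. For TRBV13-3 it was -0.36 against 0.00 and 0.10, for TRBV13-1 -0.31 against 0.02 and 0.17, and for TRBJ1-4 -0.19 against 0.35 and 0.38. For TRBV19 it was 0.29 against -0.03 and -0.22, and for TRBJ2-4 0.082 against -0.35 and -0.11. Of these ratios, only that of TRBV3 in the knockout, 0.573 (0.323 to 0.967), had an interval that excluded 1. Counted per cell, the wild-type libraries no longer shared a direction for any of the 6 segments.

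Of the same 19 TRBV and 12 TRBJ segments, 3 pointed one way in WT HFD and the other in both libraries fed the bile acid. This was not tested either. TRBV10 had -0.82 in WT HFD and 0.27 and 0.00 in the others. TRBJ1-5 had -0.13 against 0.31 and 0.59, and TRBJ2-5 had -0.015 against 0.15 and 0.42. Only TRBV10 in WT HFD, with a ratio of 0.567 (0.323 to 0.966), had an interval that excluded 1. Counted per cell, TRBJ1-5 kept the pattern, and TRBV10 and TRBJ2-5 did not.

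RNA of V genes with no contig of that name was present in conventional T cells. Trbv24 had 376 UMIs over the 3 libraries, in 2.27%, 2.35% and 2.24% of cells, Trbv21 had 48 and Trbv22 had 43.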

How the results depend on the processing

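No paired analysis was possible because each group had 1 library, so groups share no replicates. CD4 and CD8 cells were compared within each library. Of the log2 ratios between libraries that were followed under the alternatives, only that of TRBV2 between the wild-type libraries changed sign. It went from -0.32 to 0.029 with equal CD4 and CD8 weight. Beyond the ratios followed, some changed direction when counted per cell. Among them were TRBV13-1 between the wild-type libraries, and CD4 over CD8 for TRBV13-1 in WT HFD+HDCA and for TRBV19 and TRBJ1-4 in WT HFD. Of the counts and shares that answer a comparison, 108 alternatives stayed near the reported value and 23 moved, and of single segments 285 stayed within the counting interval or spread, TRBV2 among them, and 15 moved. The settings with equal CD4 and CD8 weight, with the double V name kept apart and with V read from RNA were chosen after seeing the data.

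Between the wild-type libraries, the 4 TRBV segments past 1.5-fold became 0 at 2-fold and 1 with equal CD4 and CD8 weight. Between the knockout and the wild type under the bile acid, the 1 TRBV segment became 0 with contigs of at least 3 UMIs, 0 at 2-fold, 4 at 5:4, 2 per cell without the largest CDR3 and 2 with equal weight, and the 0 TRBJ segments became 1 per cell. TRBJ segments higher in CD4 cells went from 0 to 1 per cell (TRBJ1-3) and 1 at 1.1-fold (TRBJ1-3), and those higher in CD8 cells from 0 to 3 at 1.1-fold. With 1 library left out at a time, TRBJ counts ranged from 0 to 2 on the CD4 side and 0 to 1 on the CD8 side, where TRBJ2-1 entered without WT HFD, and TRBV counts from 6 to 7 and from 5 to 6. Joins of TRBD2 to TRBJ1 in WT HFD+HDCA went from 0.505% to 0% with at least 3 UMIs. V and J pairs above expectation went from 0 to 1 at 5:4, and those below from 0 to 1 per cell and 2 at 5:4. Chains with at least 2 UMIs of their own V gene in RNA were 95.1%, 93.7% and 94.8%. With genes of at least 20 UMIs, receptor list genes higher in CD4 cells went from 0 to 1. The cause of these shifts was not tested. Depth limits segments near 1%, whose CD4 shares rest on few distinct CDR3, and Trbv5, with about 1 UMI per cell.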

Other observations

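Distinct CDR3 averaged 41.7 ± 4.38, 41.8 ± 4.40 and 41.9 ± 4.27 bases (SD over distinct CDR3) in the 3 libraries. A second beta chain was assembled in 4.80%, 5.41% and 5.58% of conventional T cells, and no cell had more than 2. Identical amino acid CDR3 with the same V and J were shared by 14 entries between the wild-type libraries (0.705% and 0.488% of each list), and by 11 and 13 entries between the knockout and each of them.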
